A study of Homo sapiens with 12 samples.

Results

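PBRM1, BAP1 and the subunits of the SWI/SNF complexes were followed in 769-P and ACHN cells with and without NUF2 knockdown. The members were taken by gene name: PBRM1, BAP1, ARID1A, ARID2, SMARCA4, SMARCA2, SMARCB1, SMARCC1, SMARCD1 and BRD7, which are 10 of the 58302 genes listed in every library. Both lines are established human cell lines that the labels call clear cell renal cell carcinoma (ccRCC) cells, and each was transfected for 48 h with siRNA-NUF2 (si-NUF2) or siRNA-control (si-NC). There were 3 libraries in each of the 4 groups. The paper's supplement describes si-NUF2 as a mix of siRNAs against NUF2, and no group received a single one of them. Effects of the mix on other targets thus cannot be told apart from those of NUF2 loss. The study asked what NUF2, a kinetochore protein, does in ccRCC cells, and the expression values are FPKM (fragments of a gene scaled by its exon length and by the depth of the library). No genotype other than the knockdown is given for the lines, and nothing states that the 3 libraries of a group came from separate cultures, so p-values measure only the spread between libraries, which may be technical.

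SWI/SNF complexes use ATP to slide or eject nucleosomes and so open chromatin at promoters and enhancers. Each complex holds 1 of a pair of ATPases, SMARCA4 (BRG1) or SMARCA2 (BRM). SMARCB1, SMARCC1 and SMARCD1 are core subunits, though not every complex holds all of them. ARID1A marks the form called BAF, whereas PBRM1, ARID2 and BRD7 mark the form called PBAF. BAP1 is no SWI/SNF subunit: it is a nuclear enzyme that removes ubiquitin from a core histone. PBRM1 and BAP1 both lie on the short arm of chromosome 3, which ccRCC tumors commonly lose, and both are known tumor suppressors of this cancer.

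Reads recovered from the FPKM ran from 28703798 to 38085597 per library. NUF2 itself, the targeted gene, fell to 20.1% of the si-NC mean (769-P) and to 27.9% of it (ACHN), without overlap of the groups in either line. PAX8, PAX2, KRT8, KRT18 and VIM were expressed in all 12 libraries, with PAX2 the lowest of them at 5.52 to 23.8 FPKM. CA9, a hypoxia target typical of ccRCC, was at most 0.121 FPKM in any library. Of the markers of other cells, PTPRC, CD3E, CD68, PECAM1 and ALB stayed at or below 0.0953 FPKM, and COL1A1 was 1.14 to 3.87 FPKM in ACHN cells. In bulk RNA, fewer cells that express a gene and less RNA of it per cell cannot be told apart.

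The promoters of 7 of the 10 members were found in the RefSeq promoter table (GRCh38.p14, 250 bases before to 50 after the start). BAP1, ARID2 and SMARCC1 had no entry. The windows of BRD7, SMARCA4 and ARID1A are shown because these genes moved after knockdown in at least 1 of the tests below, and those of SMARCB1 and SMARCA2 because they differed most between the lines. They read 5′ to 3′ on the strand of the gene, and capitals mark matches on either strand to 5 motifs. These were the GC box with the letters GGGCGG, the ETS motif with the letters CCGGAAG, the E2F motif with the letters TTTCCCGC, the E-box with the letters CACGTG and the CCAAT box.
BRD7 (chr16:50368939-50369238, minus strand): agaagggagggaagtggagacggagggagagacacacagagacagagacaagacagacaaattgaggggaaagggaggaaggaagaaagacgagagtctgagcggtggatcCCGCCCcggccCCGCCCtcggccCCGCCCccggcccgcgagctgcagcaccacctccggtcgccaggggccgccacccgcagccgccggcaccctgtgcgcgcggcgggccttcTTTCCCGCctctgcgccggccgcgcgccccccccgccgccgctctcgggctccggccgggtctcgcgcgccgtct
SMARCA4 (chr19:10960780-10961079, plus strand): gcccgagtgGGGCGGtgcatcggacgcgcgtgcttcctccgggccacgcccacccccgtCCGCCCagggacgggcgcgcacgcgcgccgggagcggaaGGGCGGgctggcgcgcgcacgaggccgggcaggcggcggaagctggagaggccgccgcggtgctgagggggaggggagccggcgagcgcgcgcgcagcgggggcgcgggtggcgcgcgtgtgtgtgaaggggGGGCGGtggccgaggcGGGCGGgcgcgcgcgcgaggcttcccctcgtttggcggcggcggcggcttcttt
ARID1A (chr1:26695765-26696064, plus strand): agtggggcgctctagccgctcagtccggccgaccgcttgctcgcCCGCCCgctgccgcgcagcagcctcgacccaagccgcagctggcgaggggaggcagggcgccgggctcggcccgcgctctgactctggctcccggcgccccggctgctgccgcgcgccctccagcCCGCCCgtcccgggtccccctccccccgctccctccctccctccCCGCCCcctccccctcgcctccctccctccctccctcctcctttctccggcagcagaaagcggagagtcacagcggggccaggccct
SMARCB1 (chr22:23786716-23787015, plus strand): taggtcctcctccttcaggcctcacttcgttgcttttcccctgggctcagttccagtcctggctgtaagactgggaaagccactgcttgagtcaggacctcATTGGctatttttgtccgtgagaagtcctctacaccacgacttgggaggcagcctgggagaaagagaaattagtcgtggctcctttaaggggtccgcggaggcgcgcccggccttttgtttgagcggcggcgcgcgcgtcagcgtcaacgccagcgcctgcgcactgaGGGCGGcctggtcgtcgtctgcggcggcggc
SMARCA2 (chr9:2015097-2015396, plus strand): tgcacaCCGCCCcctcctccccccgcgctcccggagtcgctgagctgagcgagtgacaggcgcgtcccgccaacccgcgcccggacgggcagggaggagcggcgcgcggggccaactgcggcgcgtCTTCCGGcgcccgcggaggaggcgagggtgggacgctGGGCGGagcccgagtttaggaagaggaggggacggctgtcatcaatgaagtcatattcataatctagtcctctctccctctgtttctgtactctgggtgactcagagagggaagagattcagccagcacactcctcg
A GC box stood in all 5 windows, with 3 matches in BRD7, 5 in SMARCA4, 3 in ARID1A, 1 in SMARCB1 and 2 in SMARCA2, and 45.0% of all 35116 promoters in the table hold at least 1. The window of BRD7 also held the E2F motif, as 1.63% of all promoters do. An ETS motif in the SMARCA2 window and a CCAAT box in the SMARCB1 window are shared by 10.3% and 34.6% of all promoters. The E-box, which 7.26% of promoters hold, was in none of the 5, and no 2 kinds of motif overlapped. The GC content was 73.3% (BRD7), 81.3% (SMARCA4), 78.0% (ARID1A), 61.7% (SMARCB1) and 66.7% (SMARCA2), against a median of 58.7% over the table. The second entry of SMARCA4 and the 3 further entries of SMARCA2 held none of the 5 motifs. A match is only a run of letters, and no binding was measured here.

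All 10 members were expressed in every library and passed the filter of 0.5 FPKM in at least 3 libraries of each fit. PBRM1 was 4.10, 4.11 and 4.44 FPKM in the si-NC libraries of 769-P cells and 4.05, 5.44 and 5.01 FPKM in those of ACHN cells. BAP1 was 14.7, 14.6 and 14.4 FPKM in 769-P and 21.4, 23.5 and 22.2 FPKM in ACHN cells. PBRM1 levels of the lines thus overlapped, and those of BAP1 did not. In 769-P cells under si-NC the mean levels, which are per exon length, ran in the order SMARCB1 (46.7 ± 3.61, SD, n = 3), SMARCD1, SMARCA4, BAP1, SMARCC1, BRD7, ARID1A, PBRM1, SMARCA2 and ARID2 (3.33 ± 0.389). SMARCD1 and SMARCA4 overlapped in their libraries, as did PBRM1 and SMARCA2, and the other neighbours did not. In ACHN cells the order was SMARCD1 (29.5 ± 4.85), BAP1, SMARCB1, SMARCC1, SMARCA4, BRD7, ARID1A, ARID2, PBRM1 and SMARCA2 (1.95 ± 0.314). There, only the steps from SMARCD1 to BAP1, from SMARCA4 to BRD7, from ARID1A to ARID2 and from PBRM1 to SMARCA2 were free of overlap. The order also depends on the gene length behind each FPKM. For 7 members this was the length of all exons of the gene together in GENCODE release 29, for example 18595 bases for SMARCA2. For SMARCB1 the values were whole reads at 2481 bases and not at the 16525 bases of its exons, for SMARCA4 at 11067 and not at 15778 bases, and for ARID1A at 15922 and not at 15928 bases, so the first place of SMARCB1 in 769-P cells rests on the shorter length.

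**Figure D1:**
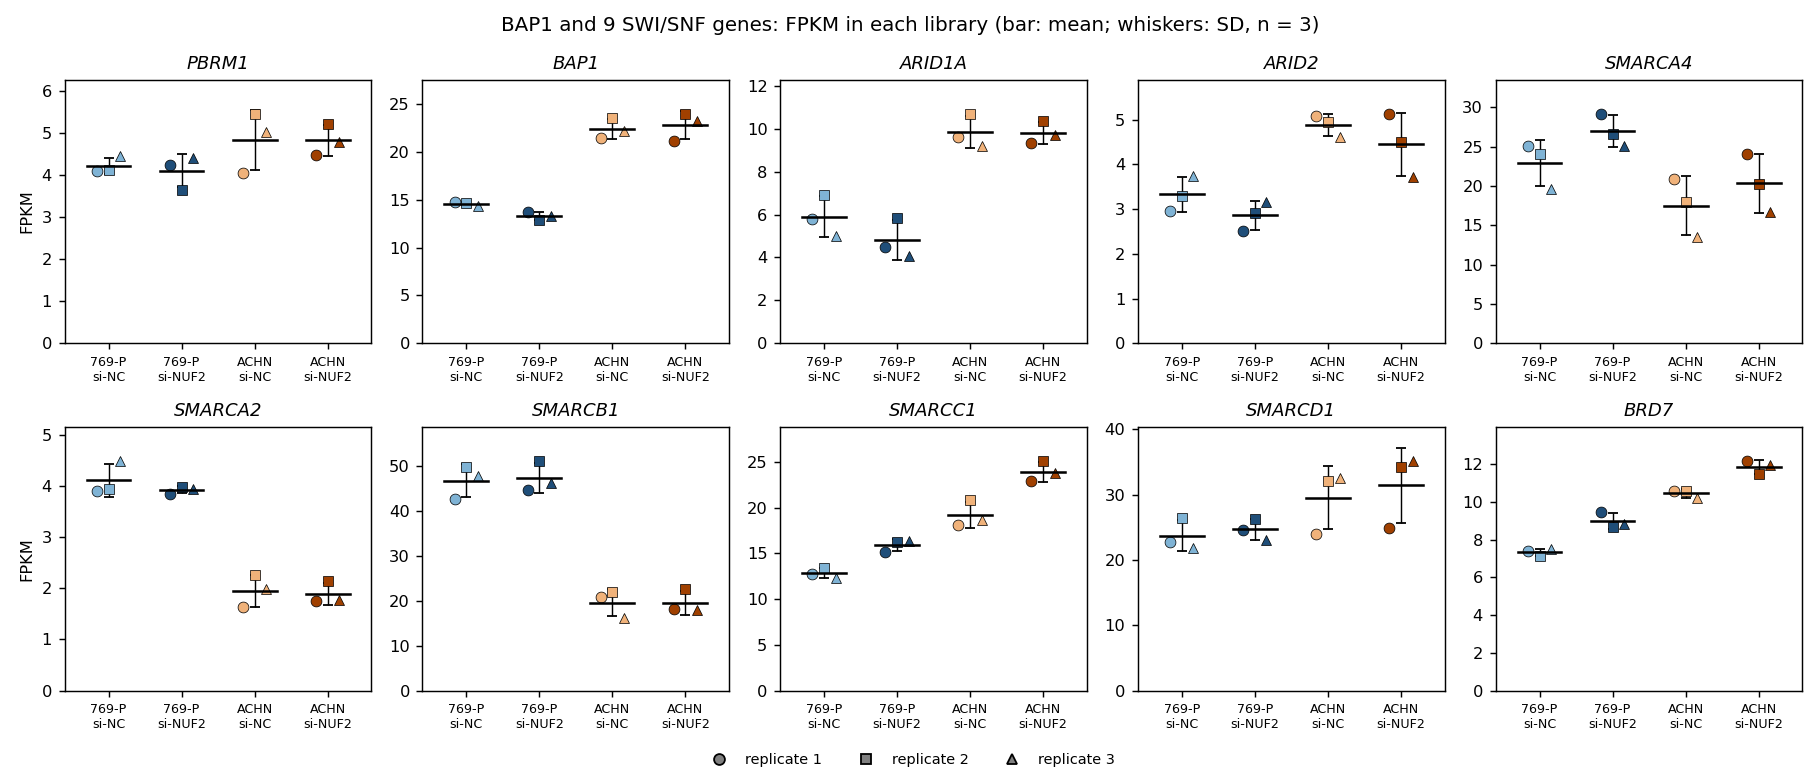
FPKM of the 10 members (vertical axis, from 0) in the 12 libraries by group, where points are libraries shaped by replicate number, the thick line is the mean and whiskers are the SD (n = 3). SMARCB1 and SMARCA2 stood higher in every 769-P library than in any ACHN library, and SMARCC1 rose above si-NC in all 3 si-NUF2 libraries of both lines.

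The first question was whether NUF2 knockdown altered the expression of these genes. In 769-P cells SMARCC1, a scaffold of the complex core, and BRD7, the bromodomain subunit of PBAF, rose about as much as each other, and PBRM1 did not pass the test in either line. SMARCC1 was 15.1, 16.3 and 16.4 FPKM after si-NUF2 and 12.7, 13.4 and 12.3 FPKM under si-NC. Its 3 si-NUF2 libraries all lay above the si-NC libraries, with a log2 fold change of 0.32 ± 0.07 (SE, limma, adjusted p = 0.0354). BRD7 was 9.45, 8.66 and 8.82 FPKM after si-NUF2 and 7.40, 7.13 and 7.49 FPKM under si-NC. These groups did not overlap either, and the log2 fold change was 0.30 ± 0.07 (limma, adjusted p = 0.0494). These were 2 of 10 members called at a Benjamini-Hochberg adjusted p under 0.05, against 9.98% of the 14155 genes tested (5.26% higher and 4.71% lower). Both calls were lost when any 1 of the 6 libraries was left out, with adjusted p of 0.0617 to 0.121 for SMARCC1 and 0.0933 to 0.127 for BRD7 without a si-NUF2 library, and of 0.0699 to 0.0983 and 0.0856 to 0.148 without a si-NC library, although their log2 fold changes stayed at 0.29 to 0.35 and 0.26 to 0.33.

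Libraries of the same replicate number deviated together from their group means, so the knockdown was also fitted with the replicate number as a block. This fit called 4 of 10 members in 769-P cells, against 27.5% of all genes tested. SMARCC1 and BRD7 remained (limma with block, adjusted p = 0.0161 and 0.0166), and SMARCA4 and ARID1A joined them. Without the 2 libraries numbered 1 only SMARCC1 was called, without those numbered 2 none, and without those numbered 3 SMARCC1, BRD7 and ARID1A. The log2 fold changes were those of the fit without the block.

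SMARCA4, the ATPase, was 29.1, 26.6 and 25.1 FPKM after si-NUF2 and 25.0, 24.1 and 19.6 FPKM under si-NC in 769-P cells. It rose in all 3 same-numbered pairs, and the lowest si-NUF2 library lay just above the highest si-NC library. The log2 fold change was 0.25, with SE 0.11 without the block (limma, adjusted p = 0.211) and SE 0.06 with it (adjusted p = 0.0345; over 20 alternatives 0.00362 to 0.544). In each of the 4 groups the library numbered 3 had the lowest SMARCA4 level of its group.

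ARID1A, which targets the BAF form to DNA, went the other way. It was 4.49, 5.86 and 4.08 FPKM after si-NUF2 and 5.79, 6.92 and 4.999 FPKM under si-NC in 769-P cells. The groups overlapped, since the library numbered 2 was the highest of each, but every si-NUF2 library was below the si-NC library of its number. The log2 fold change was -0.28, with SE 0.16 without the block (limma, adjusted p = 0.317) and SE 0.06 with it (adjusted p = 0.0231; over 20 alternatives 0.00218 to 0.618). ARID2, the corresponding subunit of PBAF, was 2.51, 2.91 and 3.16 FPKM against 2.96, 3.30 and 3.74 FPKM, lower in all 3 pairs, with a log2 fold change of -0.20 that was not called with the block (limma, adjusted p = 0.066).

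BAP1 was 13.7, 12.9 and 13.2 FPKM after si-NUF2 and 14.7, 14.6 and 14.4 FPKM under si-NC in 769-P cells. The groups did not overlap, yet the log2 fold change was only -0.12 ± 0.07 and was called neither without the block (limma, adjusted p = 0.273) nor with it (adjusted p = 0.109). BAP1 was called with all 12 libraries in 1 blocked fit (limma, adjusted p = 0.0395), a setting added after the data were seen. PBRM1 was 4.24, 3.65 and 4.40 FPKM against 4.10, 4.11 and 4.44 FPKM, and its log2 fold change of -0.03 had a 95% confidence interval from -0.27 to 0.20. Changes of PBRM1 beyond that interval were thus not seen, and smaller ones could not be told from the spread. In 769-P cells 4 members had groups that did not overlap, namely SMARCC1, BRD7 and SMARCA4, which were higher, and BAP1, which was lower, against 33.3% of all genes tested. The 4 of 10 members is thus a share close to that of all genes.

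SMARCA2, SMARCB1 and SMARCD1 were neither called nor separated in 769-P cells. SMARCA2 was 3.85, 3.99 and 3.93 FPKM against 3.91, 3.94 and 4.48 FPKM, a log2 fold change of -0.05 (95% confidence interval -0.25 to 0.15). SMARCB1 was 44.7, 51.1 and 46.3 FPKM against 42.7, 49.8 and 47.7 FPKM (0.03, interval -0.16 to 0.22). SMARCD1 was 24.6, 26.3 and 23.1 FPKM against 22.8, 26.4 and 21.9 FPKM (0.07, interval -0.14 to 0.29). In each of these 3 genes the lowest si-NUF2 library lay below the highest si-NC library. Over the 10 members the median log2 fold change was 0.00, as it was -0.01 over all genes tested, and 5 members had positive and 5 negative values.

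**Figure D2:**
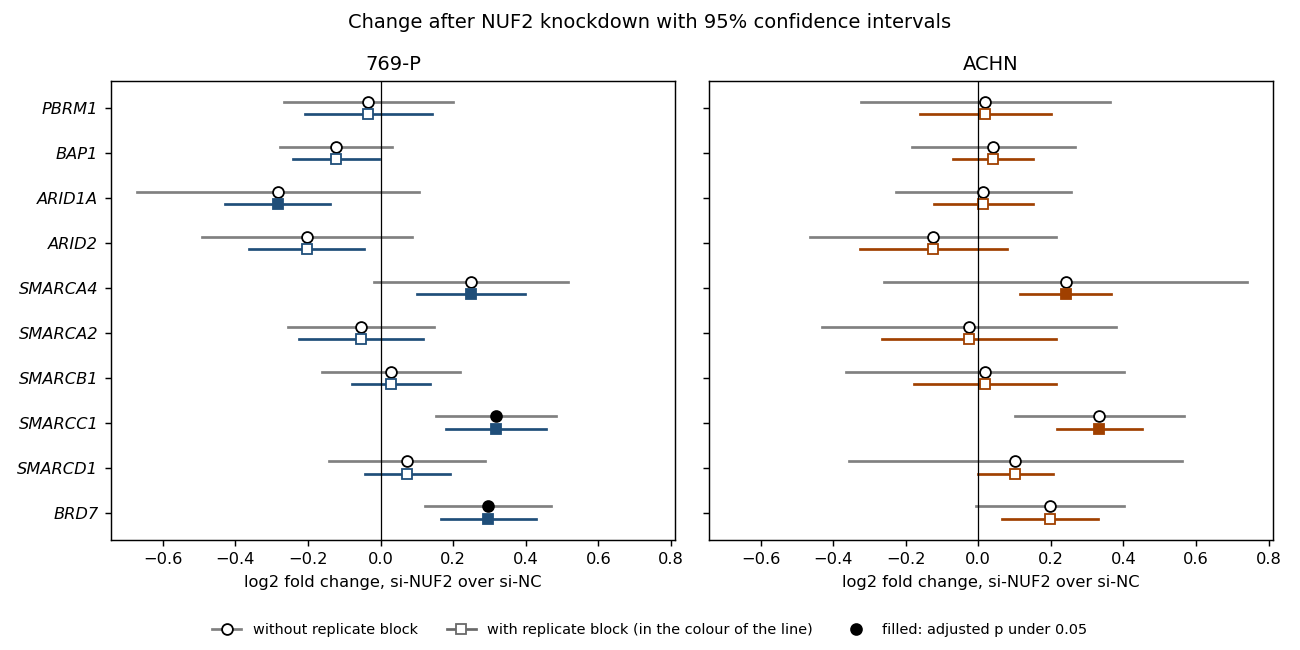
Log2 fold change of each member after NUF2 knockdown (horizontal axis, si-NUF2 over si-NC) in 769-P (left) and ACHN cells (right), with 95% confidence intervals from limma without (circles) and with (squares) the replicate block, filled where the adjusted p was under 0.05. SMARCC1 lay at 0.32 and 0.33 and SMARCA4 at 0.25 and 0.24 in the 2 lines, and the block narrowed the intervals of both.

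In ACHN cells none of the 10 members was called without the block, as was none of the 15116 genes tested (0.0%), of which 1238 (8.19%) had an unadjusted p under 0.05. At that level SMARCC1 was the 1 member to pass. The targeted gene NUF2 was itself not called without the block (log2 fold change -1.87 ± 0.32, limma, adjusted p = 0.224), but was with it (adjusted p = 0.0122). A missing call in the fit without the block thus does not show that a gene was unchanged. SMARCC1 was 22.9, 25.1 and 23.8 FPKM after si-NUF2 and 18.1, 20.9 and 18.6 FPKM under si-NC, with no overlap and a log2 fold change of 0.33 ± 0.10. With the block, 2 of 10 members were called, against 12.2% of all genes tested: SMARCC1 (limma, adjusted p = 0.0207; over 20 alternatives 0.00122 to 0.888) and SMARCA4 (adjusted p = 0.0433; 0.00896 to 0.994). SMARCA4 was 24.1, 20.2 and 16.7 FPKM against 20.9, 18.0 and 13.5 FPKM, so the groups overlapped although all 3 pairs rose, and the log2 fold change was 0.24 with an SE of 0.21 without the block and 0.05 with it. When 1 pair was left out, SMARCC1 was called without the libraries numbered 2 (adjusted p = 0.0405) and not without those numbered 1 or 3, and SMARCA4 was not called without any 1 pair.

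BRD7 was 12.2, 11.5 and 11.9 FPKM after si-NUF2 and 10.6, 10.6 and 10.2 FPKM under si-NC in ACHN cells. The groups did not overlap, and the log2 fold change of 0.20 just missed the call with the block (limma, adjusted p = 0.0679). The other 2 blocked fits over the same pairs, both added after the data were seen, called it (adjusted p = 0.0289 with limma-voom on recovered reads and 0.0377 with limma on all 12 libraries). SMARCC1 and BRD7 were the 2 of 10 members with no overlap in ACHN cells, both higher, against 14.3% of all genes tested.

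None of the remaining members was called in ACHN cells, with or without the block. Changes within the intervals given below could not be told from the spread. PBRM1 was 4.46, 5.21 and 4.78 FPKM after si-NUF2 and 4.05, 5.44 and 5.01 FPKM under si-NC (log2 fold change 0.02, 95% confidence interval -0.32 to 0.36). BAP1 was 21.2, 23.9 and 23.2 FPKM against 21.4, 23.5 and 22.2 FPKM (0.04, interval -0.18 to 0.27). For both tumor suppressors the libraries interleaved. ARID1A was 9.35, 10.3 and 9.72 FPKM against 9.62, 10.7 and 9.20 FPKM (0.01, interval -0.23 to 0.26). ARID2 was 5.13, 4.51 and 3.73 FPKM against 5.09, 4.95 and 4.61 FPKM (-0.12, interval -0.46 to 0.21). Neither of these subunits passed the test, and 1 of 3 pairs rose in each. SMARCA2 was 1.75, 2.14 and 1.77 FPKM against 1.62, 2.25 and 1.98 FPKM (-0.03, interval -0.43 to 0.38). SMARCB1 was 18.1, 22.5 and 18.0 FPKM against 20.8, 21.8 and 16.1 FPKM (0.02, interval -0.36 to 0.40). The core subunit SMARCD1 was 24.8, 34.3 and 35.1 FPKM against 23.9, 32.1 and 32.6 FPKM. It rose in all 3 pairs by a log2 fold change of 0.10 that was not called with the block (limma, adjusted p = 0.160), and the library numbered 1 was the lowest in both groups.

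The response of the members was then compared between the lines as an interaction of siRNA and cell line. None of the 10 members was called without the block (0.0% of 16564 genes, 4.68% at an unadjusted p under 0.05, none of them a member) or with it (1.52% of all genes). The difference was nearest to the threshold for ARID1A, at -0.30 in log2 with a 95% confidence interval from -0.76 to 0.15 without the block and from -0.47 to -0.14 with it (limma, adjusted p = 0.0861). A blocked limma-voom fit on recovered reads was added after the data were seen. It called ARID1A alone of the members (limma-voom, adjusted p = 0.0307) and 1040 genes in all, against 251 genes with the first block. BAP1 differed by -0.17 (block, adjusted p = 0.150). For SMARCC1 and SMARCA4 the differences were -0.02 and 0.00 with blocked intervals of -0.17 to 0.13 and -0.17 to 0.18, so responses differing by more than that were not seen.

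The second question was how the baseline differed between the lines. Under si-NC 7 of 10 members were called, a share near the 61.5% of all 15376 genes tested, so a difference as such was nothing particular to them. SMARCB1, the core subunit lost in rhabdoid tumors, was 42.7, 49.8 and 47.7 FPKM in 769-P and 20.8, 21.8 and 16.1 FPKM in ACHN cells. It was 2.46-fold higher in 769-P (log2 1.30 ± 0.14, limma, adjusted p = 0.000253). SMARCA2, the alternative ATPase, was 3.91, 3.94 and 4.48 FPKM in 769-P and 1.62, 2.25 and 1.98 FPKM in ACHN cells, 2.12-fold higher (log2 1.08 ± 0.16, adjusted p = 0.00100). These were the only 2 members called higher in 769-P, against 32.2% of all genes. SMARCA4 was 25.0, 24.1 and 19.6 FPKM against 20.9, 18.0 and 13.5 FPKM, which overlapped. Its log2 difference of 0.44 was not called (adjusted p = 0.0725), but was under 5 of the 16 alternatives, over which the adjusted p ran from 0.0229 to 0.192.

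In 769-P cells 5 members were called lower, against 29.3% of all genes. ARID1A had the most negative log2 difference, with 5.79, 6.92 and 4.999 FPKM against 9.62, 10.7 and 9.20 FPKM (log2 -0.70 ± 0.14, limma, adjusted p = 0.00488). BAP1 followed with -0.58 ± 0.08 (adjusted p = 0.000987), its highest 769-P library lying well below its lowest ACHN library. SMARCC1 was 12.7, 13.4 and 12.3 FPKM against 18.1, 20.9 and 18.6 FPKM (-0.54 ± 0.09, adjusted p = 0.00251). ARID2 was 2.96, 3.30 and 3.74 FPKM against 5.09, 4.95 and 4.61 FPKM (-0.51 ± 0.13, adjusted p = 0.0118). BRD7 was 7.40, 7.13 and 7.49 FPKM against 10.6, 10.6 and 10.2 FPKM (-0.47 ± 0.09, adjusted p = 0.00329). None of these 5 genes overlapped between the lines, and with SMARCB1 and SMARCA2 that made 7 of 10 members without overlap, against 68.3% of all genes. SMARCD1 (-0.27, adjusted p = 0.148) and PBRM1 (-0.15, 95% confidence interval -0.48 to 0.18, adjusted p = 0.393) were not called, but SMARCD1 and SMARCA4 were when the ACHN si-NC library numbered 1 was left out (adjusted p = 0.0213 and 0.0263), which made 9 of 10. The line comparison and both knockdown comparisons share the si-NC libraries, and they are not independent of each other.

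PBRM1 (chr3:52545352-52685917), BAP1 (chr3:52401013-52410350) and SMARCC1 (chr3:47585272-47782106) lie on the minus strand of the short arm of chromosome 3 (hg38, gene bounds of GENCODE release 29). The 380 tested genes of this arm had a median log2 difference of -0.47 between 769-P and ACHN cells under si-NC, against 0.04 over all genes, and 74.2% of them were lower in 769-P against 48.4% of all genes. BAP1 and SMARCC1 were near that median, and PBRM1 lay above it. Of the arm's genes 50.5% were called lower in 769-P. Copy number was not measured, and its part in these levels was not tested.

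**Figure D3:**
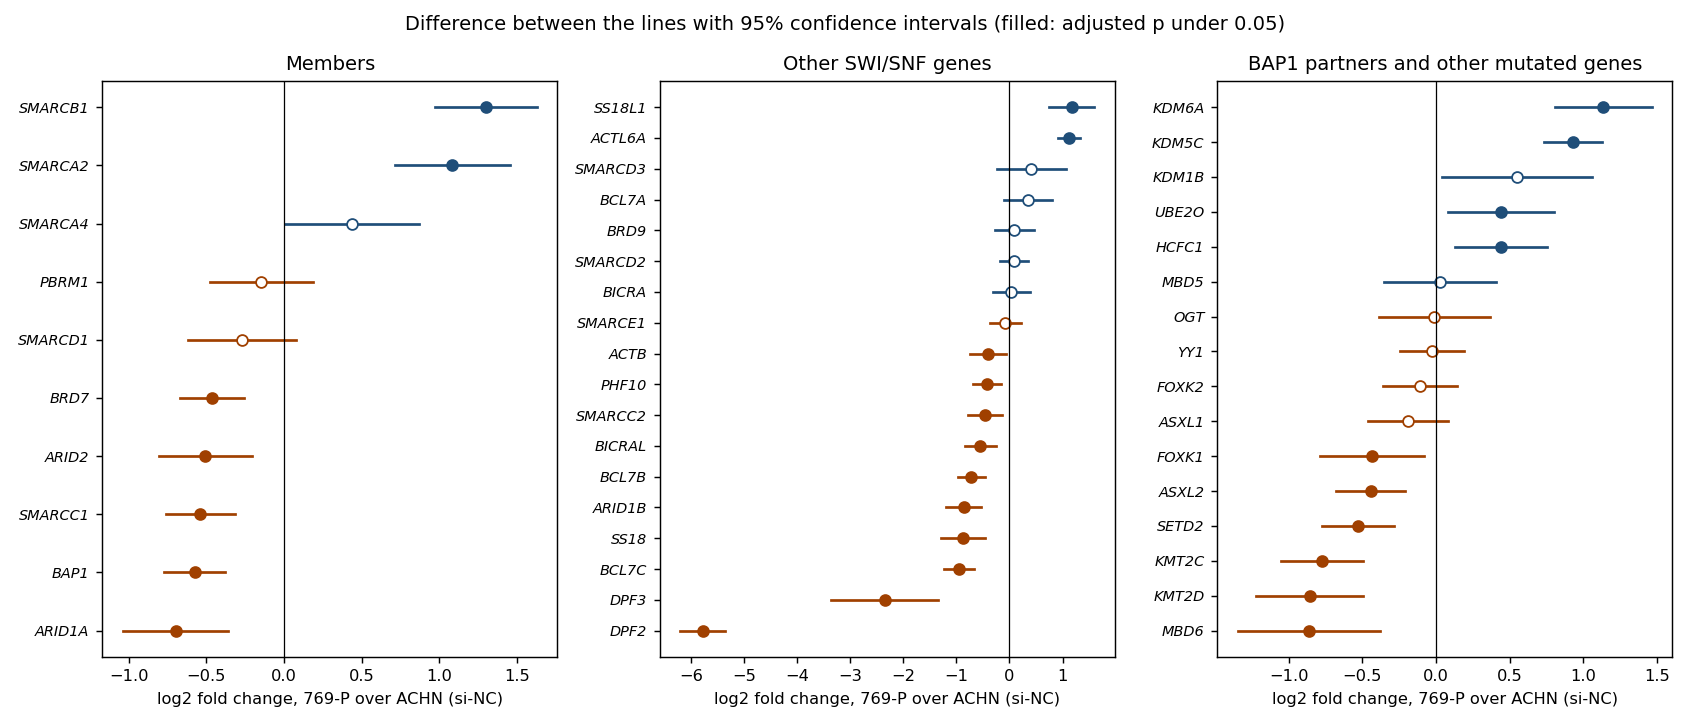
Log2 fold change of 769-P over ACHN cells under si-NC (horizontal axes, which differ in range) for the members, other SWI/SNF genes, and BAP1 partners with other chromatin genes mutated in ccRCC, with 95% confidence intervals from limma, filled where the adjusted p was under 0.05. SMARCB1 (1.30) and SMARCA2 (1.08) were called higher in 769-P, 5 members were called lower, and DPF2 lay far below the rest.

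Ratios between subunits that take the same or alternative places were compared over libraries by exact two-sided permutation tests, which with 3 against 3 libraries cannot give a p below 0.1. The size of each ratio depends on the gene lengths behind the FPKM, such as 11067 bases for SMARCA4 and 18595 bases for SMARCA2. Each ratio was taken after adding 0.1 FPKM to both genes. So computed, SMARCA4 was 4.29 to 6.28 times SMARCA2 in 769-P and 6.55 to 12.2 times in ACHN cells under si-NC, without overlap (exact permutation p = 0.1, 0.45 adjusted over the 9 ratio comparisons). PBRM1 was 0.600 to 0.890 times ARID1A in 769-P and 0.427 to 0.549 times in ACHN cells, also without overlap (exact permutation p = 0.1, adjusted 0.45). ARID1A over ARID2 ran from 1.33 to 2.06 in 769-P cells, overlapping the 1.87 to 2.13 of ACHN cells. After knockdown all 3 ratios overlapped with si-NC in both lines (exact permutation p of 0.2 to 1.0), SMARCA4 over SMARCA2 being 6.25 to 7.40 in 769-P cells and ranging from 8.99 to 13.1 in ACHN cells. This test does not use the pairing. Within same-numbered pairs, SMARCA4 over SMARCA2 was higher after si-NUF2 in 3 of 3 pairs of both lines, going from 6.28 to 7.40, from 5.97 to 6.53 and from 4.29 to 6.25 in 769-P cells. In 769-P cells PBRM1 over ARID1A was also higher in 3 of 3 pairs and ARID1A over ARID2 in 0 of 3, against 1 and 2 of 3 pairs in ACHN cells. These pairs were not tested.

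Across the 12 libraries, with the mean of each line taken out, PBRM1 and SMARCA2 varied together the most of all member pairs (Pearson r = 0.80), followed by SMARCC1 and BRD7 (0.80) and by PBRM1 and BAP1 (0.62). The lowest value was that of ARID1A and BRD7 (-0.58). Over 11013 genes the patterns most like PBRM1 were those of CNN3 (0.919), LRP11 (0.908) and TAF1 (0.907), and most like BAP1 those of SPOUT1 (0.962), GRSF1 (0.945) and NUP160 (0.935). These are descriptions over libraries that share depth, siRNA and replicate number.

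The complexes hold further subunits, of which 20 were listed. In 769-P cells 16 of them passed the filter and 3 were called after knockdown, all higher: SMARCE1, BICRA and BCL7B, where 9.98% of all genes were called and 5.26% were called higher. SMARCE1, the HMG-box subunit that binds DNA, was 7.30, 8.41 and 8.06 FPKM after si-NUF2 and 4.35, 4.80 and 4.13 FPKM under si-NC. Its rise of 0.84 ± 0.09 in log2 (limma, adjusted p = 0.0056) was larger than that of any member. BICRA, which defines another form of the complex, was 2.09, 2.21 and 2.15 FPKM against 1.49, 1.42 and 1.41 FPKM (0.56 ± 0.10, adjusted p = 0.0213). BCL7B, an accessory subunit, was 15.4, 16.6 and 16.2 FPKM against 11.5, 13.6 and 11.2 FPKM (0.42 ± 0.09, adjusted p = 0.0324). The groups of all 3 genes were apart. SMARCE1 was called under every alternative run for this comparison (adjusted p of at most 0.0275), but the call of BICRA was lost without any 1 library other than the si-NC library numbered 1, and that of BCL7B without any 1 other than the si-NC library numbered 2 (adjusted p of up to 0.0797 and 0.108). With the block 4 of 16 were called higher and 1 lower, against 27.5% of all genes called.

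In ACHN cells 18 of the 20 were tested and none was called without the block, the lowest p-values being those of BCL7B and BICRAL. BCL7B was 28.6, 27.9 and 32.5 FPKM after si-NUF2 and 19.8, 19.6 and 22.0 FPKM under si-NC (log2 0.55 ± 0.10), and BICRAL, the paralog of BICRA, was 2.32, 2.47 and 2.23 FPKM against 3.18, 3.03 and 3.24 FPKM (-0.40 ± 0.10). With the block both were called (limma, adjusted p = 0.0118 and 0.0384), as were 5 of 18, of which 4 were higher, against 12.2% of all genes. SMARCE1 was 5.10, 6.02 and 5.65 FPKM against 4.31, 4.98 and 5.10 FPKM in ACHN cells (0.24 ± 0.12, block adjusted p = 0.0602). BICRA was 2.03, 2.20 and 1.79 FPKM against 1.37, 1.63 and 1.33 FPKM in ACHN cells, without overlap. Its rise of 0.46 ± 0.15 in log2 was called with the block (limma, adjusted p = 0.0384). BICRAL was also lower in all 3 pairs of 769-P cells (log2 -0.32 ± 0.14), but was not called with the block (limma, adjusted p = 0.0514). Median log2 fold changes over this list were 0.08 (769-P) and 0.07 (ACHN), against -0.01 and 0.01 over all genes tested.

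**Figure D4:**
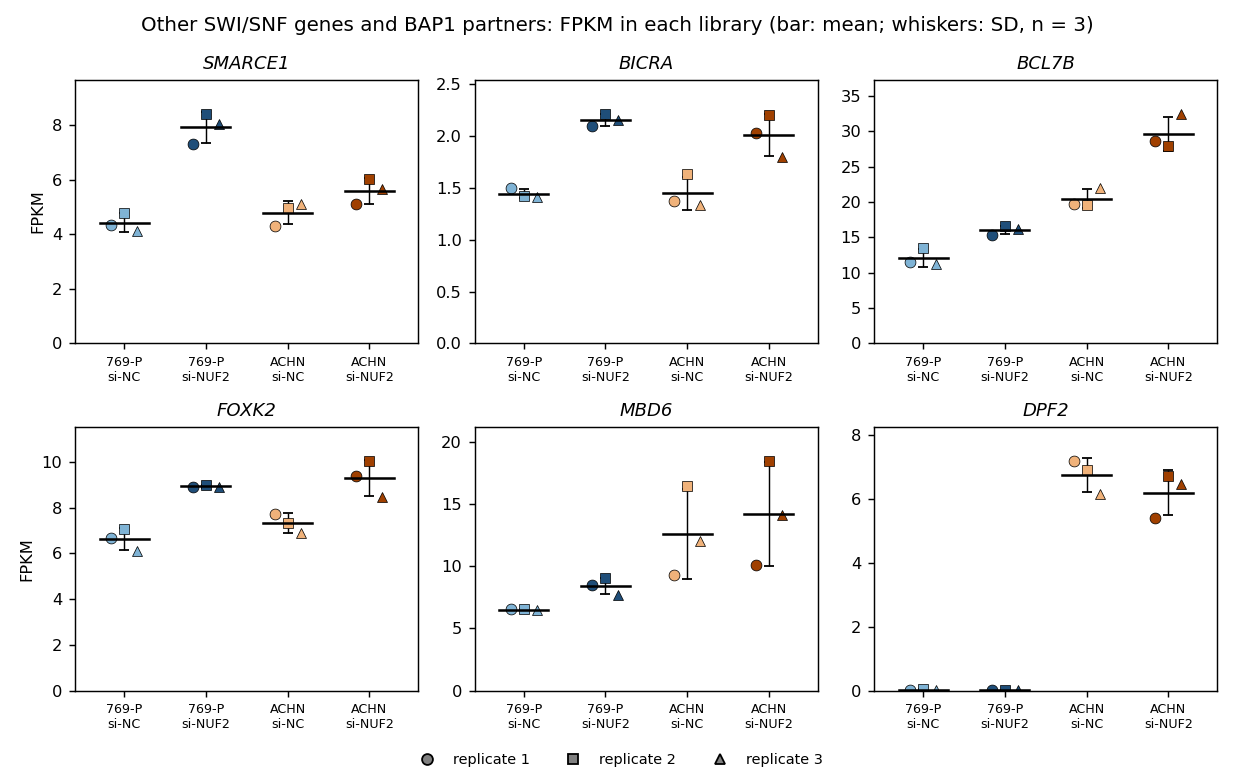
FPKM (vertical axis, from 0) of 4 further SWI/SNF genes, SMARCE1, BICRA, BCL7B and DPF2, and of the BAP1 partners FOXK2 and MBD6 in the 12 libraries, with the mean (line) and SD (whiskers, n = 3). SMARCE1, BICRA, BCL7B, FOXK2 and MBD6 were higher in all 3 si-NUF2 libraries of 769-P cells, and DPF2 was near 0 in all 6 libraries of 769-P cells.

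Between the lines 12 of 18 further SWI/SNF genes were called, 2 higher and 10 lower in 769-P cells, where 61.5% of all genes were called. Their median log2 difference was -0.41, close to the -0.37 of the members, against 0.04 over all genes. SS18L1 (log2 1.18 ± 0.18) and ACTL6A, the actin-like subunit (1.13 ± 0.09), were higher in 769-P. DPF2, the PHD-finger subunit of BAF that reads histone marks, was represented by 3, 10 and 4 reads in the si-NC libraries of 769-P cells and by 1739, 2054 and 1669 reads in those of ACHN cells, which is 0.0132, 0.0404 and 0.0160 against 7.18, 6.91 and 6.15 FPKM. After si-NUF2 it was at 2, 3 and 2 reads in 769-P cells. Its paralog DPF3 was also lower in 769-P, at 0.148, 0.158 and 0.0762 FPKM against 2.09, 0.663 and 0.854 FPKM, and BCL7C was lower by -0.95 ± 0.12 in log2. Another paralog, DPF1, was at most 0.305 FPKM in 769-P and 0.469 FPKM in ACHN cells and passed the filter in neither line. The fitted log2 difference of DPF2 depends on the value of 0.1 added before taking logs and is not given as a fold.

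BAP1 works in a complex with ASXL proteins, HCFC1, OGT and FOXK proteins, and 11 of 12 listed partners were tested in each comparison. After knockdown in 769-P cells 2 were called, both higher, against 9.98% of all genes. FOXK2, which brings the complex to DNA, was 8.90, 9.004 and 8.90 FPKM against 6.67, 7.06 and 6.11 FPKM (log2 0.44 ± 0.08, limma, adjusted p = 0.0205), and MBD6, which binds the complex, was 8.48, 9.02 and 7.69 FPKM against 6.55, 6.55 and 6.45 FPKM (0.37 ± 0.08, adjusted p = 0.0363). The call of MBD6 was lost without any 1 of the 6 libraries and with all 12 libraries in 1 fit (adjusted p = 0.454), and that of FOXK2 without any 1 library other than the si-NC library numbered 1 (adjusted p of up to 0.0749). With the block 3 were called higher and 2 lower, against 27.5% of all genes called. In ACHN cells none was called without the block and 2 with it, where 12.2% of all genes were called, FOXK2 (0.36, adjusted p = 0.0266) and UBE2O (0.37, adjusted p = 0.0291), the enzyme that ubiquitinates BAP1. Between the lines 5 of 11 were called, a smaller share than the 61.5% of all genes, with HCFC1 (0.44) and UBE2O (0.44) higher and MBD6 (-0.86), ASXL2 (-0.44) and FOXK1 (-0.43) lower in 769-P cells.

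Of 5 other chromatin genes mutated in ccRCC, none was called after knockdown in either line, with or without the block. The lowest p-values were those of KDM5C (log2 0.14) and SETD2 (-0.07) in 769-P and of KMT2C (0.14) and KDM6A (-0.11) in ACHN cells. All 5 were called between the lines, as were 61.5% of all genes: KDM6A (1.14) and KDM5C (0.93), both histone demethylases on the X chromosome, were higher in 769-P, and KMT2D (-0.85), KMT2C (-0.78) and SETD2 (-0.53), which are histone methyltransferases, were lower. SETD2 lies on the short arm of chromosome 3 beside the members named above, and was 4.98, 4.88 and 4.76 FPKM in 769-P and 6.91, 7.87 and 7.04 FPKM in ACHN cells under si-NC.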

How the data were processed

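Total RNA of 12 libraries was sequenced on the Illumina platform. The authors filtered reads with fastp and deposited 1 FPKM per gene and library; HISAT2 2.0.5, featureCounts 1.5.0-p3 and build hg38 stand in the submitters' processing notes, and the strand setting is not given in the sources used here. Of the values under 30 reads, 96.8% to 97.3% were whole multiples of 1 read (tolerance 0.02) at the exon lengths of GENCODE release 29. Reads were recovered, for depth and for limma-voom, for 36022 of 36305 genes above 0, of which 34627 at these lengths and 1395 at another length found from the values (among them SMARCB1, SMARCA4, ARID1A and SMARCE1).

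FPKM were scaled by a trimmed mean of log ratios (30% and 5% trimmed), and genes with at least 0.5 FPKM in at least 3 libraries were fitted on log2(FPKM + 0.1) (limma 3.58.1, R 4.3.3, lmFit and eBayes with trend, Benjamini-Hochberg adjustment over all genes tested, threshold 0.05). Fold changes are on that scale. Each two-group comparison was fitted alone and the interaction on all 12 libraries. Ratios and correlations used Python 3.11.15 and SciPy 1.17.1. The fits without the block were tested on simulated data. Alternatives changed the scaling, pseudocount, filter, threshold, block and libraries.

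Same-numbered libraries of a line correlated at 0.190 to 0.359 (769-P) and 0.460 to 0.735 (ACHN) in their deviations from group means, so the numbers pair the libraries of a line, though no source says what a number stands for. Between the lines the values were -0.057 to 0.043. No library was a copy of another. Members and gene lists were chosen with earlier results of these data known. All 10 members were named, and of the wider lists up to 3 called genes per direction with the largest change, or the 2 lowest p-values where none was called.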

Additional observations from a re-analysis of the deposited data

Results flagged for a closer look

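SMARCE1, the HMG-box subunit of SWI/SNF, rose more in 769-P than in ACHN cells after NUF2 knockdown, but the call of this difference depended on the replicate block. The log2 fold change was 0.60 ± 0.14 higher in 769-P than in ACHN cells (SE, n = 3 per group). The difference was called with the block (limma, Benjamini-Hochberg adjusted p = 0.0368), as were 1.52% of all genes tested. Without the block it was not called (limma, adjusted p = 0.864), and 0.0% of all genes were. All 3 same-numbered pairs rose in both lines, and SMARCE1 was not one of the 10 genes chosen by name.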

How the results depend on the processing

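After knockdown in 769-P cells, 2 of 10 members were called, but 0 with no filter on low values, 0 at an adjusted p under 0.01, and 0 without any 1 library. With the replicate block 4 were called, and leaving out the libraries of 1 number gave 1 without number 1 and 0 without number 2. In ACHN cells 0 members were called and 2 with the block (1 without the libraries numbered 2). Settings added after the data were seen gave 5 in 769-P and 3 in ACHN cells with all 12 libraries in 1 blocked fit, and also 5 and 3 with blocked limma-voom, which called 1 in the difference between the lines. Calls over all genes moved as well. In 769-P cells they ran from 357 to 1887 genes over 16 settings without the block and from 1691 to 5165 over 6 with it. In ACHN cells they ran from 0 to 171 and from 0 to 3473 genes. For the difference between the lines the 2 blocked fits called 251 and 1040 genes. The cause of these differences was not tested. Under si-NC 7 to 9 members were called when each library was left out, and a block, which the numbers of the 2 lines do not justify, gave 8. Upper-quartile scaling moved the median log2 difference of all genes between the lines from 0.04 to 0.17.

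Only values near 0 changed sign, none of them called. Leaving out 1 library gave ranges in 769-P cells of -0.087 to 0.049 (PBRM1), -0.084 to 0.0059 (SMARCA2) and -0.028 to 0.073 (SMARCB1), and in ACHN cells of -0.10 to 0.11 (PBRM1), -0.032 to 0.076 (ARID1A), -0.14 to 0.081 (SMARCA2), -0.12 to 0.11 (SMARCB1) and -0.041 to 0.25 (SMARCD1). For log2 ratios the ranges were -0.27 to 0.10 (ARID1A over ARID2, 769-P knockdown), -0.32 to 0.0015 (ARID1A over ARID2 between lines) and -0.10 to 0.082 (PBRM1 over ARID1A, ACHN knockdown). With the block and without 1 number, PBRM1 was 0.030 and SMARCA2 0.0032 in 769-P cells, and PBRM1 was -0.051, ARID1A -0.027, SMARCA2 0.033 and SMARCB1 -0.00083 and -0.060 in ACHN cells. ARID1A in ACHN cells was -0.0033 with no further scaling, -0.0011 with limma-voom and -0.0020 with blocked limma-voom, where PBRM1 was -0.00018. Counts ran from 948 to 10109 reads per member and library, and what limited precision was not tested. In simulated data with a log2 change of 1, 74.7% of changed genes were recovered in 769-P and 35.6% in ACHN cells by the fits without the block. The members changed by less than that after knockdown, and the simulated libraries were not paired. Recovery of changes as small as theirs, or with the block, was thus not tested.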

Other observations

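DPF2 was near 0 in 769-P cells while genes on both sides of it on chromosome 11 were expressed. CDC42EP2, which ends before the start of DPF2, had a mean of 7.86 FPKM in 769-P and 6.60 FPKM in ACHN cells under si-NC. FRMD8, on the other side, had means of 44.9 and 9.25 FPKM, and SLC25A45 had means of 3.27 and 1.46 FPKM. POLA2 and CAPN1 had means of 7.39 and 31.0 FPKM in 769-P cells. Of 10 genes within 200 kb, 8 thus had a mean above 1 FPKM in 769-P cells, SPDYC and TIGD3 being below it in both lines. DPF2 was singled out after its values were seen, and whether its locus is altered in 769-P cells was not tested.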
